A study of Mus musculus with 10 samples.

Results

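Neural stem cells are recognised by a small panel of genes, and 9 of them were followed here through every library of a study of the chromatin protein SMCHD1, which helps to keep genes silent. The genes were chosen by name from the 52632 genes of the count table: Sox2, Sox9, Nr2e1, Msi1, Nes, Vim, Fabp7, Prom1 and Slc1a3. The rule names the genes and sets no threshold on their values, though earlier results of these data were known when the list was made. All 9 were present once in the table and passed the filter on low counts. The cultures were adherent monolayers grown with EGF and FGF from the cortices of single mouse embryos at embryonic day 14.5.

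The 10 libraries formed 4 groups. Female embryos were either Smchd1 GFP-E147A/+ (n = 2) or Smchd1 +/+ (n = 2), and males likewise (n = 3 in each group). E147A changes the ATPase domain of SMCHD1, and the mutant allele alone carried the GFP tag, so that mutation and tag cannot be told apart. All females also carried the XistdeltaA/+ deletion, controls included, and males were XY. Sex and this deletion therefore cannot be told apart in any comparison of females with males below. Per the labels every embryo had a Castaneus (Cast) father and a 129/C57 F1 mother. Litters 1 and 2 gave the female E147A/+ embryos and litter 3 both female +/+ embryos, so litter and genotype cannot be told apart in females. Male E147A/+ came from litters 1, 1 and 3, and male +/+ from litters 4, 1 and 3. Each library is a culture from another embryo.

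In the developing cortex these genes mark radial glia, the progenitors that line the ventricle and give rise first to neurons and later to glia. SOX2 is a transcription factor that keeps progenitors undifferentiated, SOX9 one that also promotes the glial fate, and NR2E1 (TLX) an orphan nuclear receptor needed for self-renewal. MSI1 is an RNA-binding protein that represses translation of messages such as that of the Notch inhibitor Numb. Nestin (Nes) and vimentin (Vim) are intermediate filament proteins of radial fibres, FABP7 is a fatty-acid-binding protein, prominin-1 (Prom1, CD133) a cholesterol-binding protein of membrane protrusions, and SLC1A3 (GLAST) a glutamate transporter.

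RefSeq promoter windows (GRCm38.p6, the 250 bases before an annotated start) were at hand for 7 of the 9 genes, and 4 are shown, of genes that the results below return to. Sox2 had the lowest coefficient of variation of the 9 genes, Nes and Fabp7 stood in the gene pairs with the lowest p, and Slc1a3 is shown as a membrane transporter gene beside them. Bases inside the gene model of the count table were dropped from the sequences shown. Matches and shares of G and C were counted over all 250 bases of each window. The window of Vim and both windows of Prom1 lay wholly inside the gene model. The windows lie at chr3:34649745-34649994 on the plus strand for Sox2, chr3:87970843-87971077 on the plus strand for Nes, chr10:57784673-57784880 on the plus strand for Fabp7 and chr15:8710808-8711057 on the minus strand for Slc1a3. They are written 5′ to 3′, and capitals mark the letters ACAAT (the core bound by SOX proteins), CCAAT (the CCAAT box) and TATAAA (the TATA box) on either strand.
Sox2: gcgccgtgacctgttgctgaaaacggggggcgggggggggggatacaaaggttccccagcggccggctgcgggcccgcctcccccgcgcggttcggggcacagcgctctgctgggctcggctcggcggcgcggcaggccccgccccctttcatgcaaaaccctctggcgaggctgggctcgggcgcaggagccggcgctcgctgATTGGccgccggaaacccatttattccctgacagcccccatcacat
Nes: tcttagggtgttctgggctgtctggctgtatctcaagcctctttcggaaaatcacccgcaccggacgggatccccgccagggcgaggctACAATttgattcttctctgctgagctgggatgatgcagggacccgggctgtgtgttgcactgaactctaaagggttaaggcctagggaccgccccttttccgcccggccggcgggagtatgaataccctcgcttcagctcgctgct
Fabp7: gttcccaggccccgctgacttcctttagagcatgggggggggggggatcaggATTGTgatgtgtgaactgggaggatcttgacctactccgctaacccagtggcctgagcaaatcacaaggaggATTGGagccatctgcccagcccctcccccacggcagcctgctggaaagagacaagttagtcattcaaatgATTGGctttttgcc
Slc1a3: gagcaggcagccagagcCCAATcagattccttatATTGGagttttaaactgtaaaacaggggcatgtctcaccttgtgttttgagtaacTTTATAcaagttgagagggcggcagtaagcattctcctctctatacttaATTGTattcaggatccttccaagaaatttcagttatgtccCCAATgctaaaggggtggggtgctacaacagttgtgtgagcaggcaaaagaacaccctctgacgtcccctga
The Slc1a3 window shows CCAAT boxes, a SOX core and a TATA box, the Fabp7 window a SOX core and CCAAT boxes, the Nes window a SOX core and the Sox2 window a CCAAT box. The Sox2 window was the richest in G and C, at 72.0%, and that of Slc1a3 the poorest, at 44.8%, against a median of 52.4% over the 32851 windows searched. The windows searched do not cover every chromosome. The SOX core occurred in 3 of 8 windows of these genes (Prom1 has 2) and in 27.7% of the windows searched, and the CCAAT box in 5 of 8 and in 33.8%. The TATA box occurred in 2 of 8 and in 12.4%, and no matches overlapped. The GC box (GGGCGG), which is not in capitals, occurred in 4 of 8, those of Sox2, Nes and Slc1a3 and one of Prom1, and in 32.7% of the windows searched. These are matches of letters in short windows and do not show binding.

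Total counts ranged from 20648916 to 44519020 per library, and the 9 genes together took 0.481% to 0.679% of them. Values per library are normalised counts on the counts-per-million scale of edgeR (CPM), relative to each library's TMM-scaled total. For the targeted gene Smchd1 the mean was 118 CPM (SD 2.88, n = 2) among female mutants against 156 (SD 22.5, n = 2) among their controls, and 115 (SD 17.9, n = 3) against 155 (SD 34.9, n = 3) among males. With the sexes combined, edgeR put Smchd1 at a log2 fold change of -0.42 with an SE of 0.15 and an adjusted p of 0.786. Gene counts do not show the point mutation itself. The library of female +/+ replicate 1 held counts of 4 Y-linked genes at 1.75% of the male mean, against 0.0429% to 0.438% in the other females, and the fits and the spread below were also computed without it.

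The 9 genes spanned a wide range of levels. Per kilobase of exon, Fabp7 was highest, with 892 ± 292 CPM per kb (SD, n = 10), followed by Vim (559 ± 154) and Nes (123 ± 29.1). Slc1a3 (107 ± 21.9) and Sox2 (96.6 ± 8.33) came next, then Sox9 (31.4 ± 4.71), Nr2e1 (11.5 ± 1.89), Msi1 (7.997 ± 1.76) and Prom1 (5.18 ± 2.61). The ranges of Vim and Nes, of Sox2 and Sox9, and of Sox9 and Nr2e1 did not overlap. Those of the other neighbours overlapped: Nes was above Slc1a3 in 5 of 10 libraries, and Msi1 above Prom1 in 8. Fabp7, Vim, Nes, Slc1a3 and Sox2 lay above at least 97.3% of the 17085 tested genes with a known exon length, and Prom1 above 52.3%.

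The labelled cell type was checked against markers of other cells. Of 7 microglial genes, all but P2ry12 had at most 6 counts in any library, and the list summed to 0.276 to 2.83 CPM. The sums were 0.948 to 1.20 and 0.539 to 1.08 CPM in female E147A/+ and +/+ and 0.366 to 0.636 and 0.276 to 2.83 in males. Endothelial genes summed to 0.670 to 4.12 CPM and mural and mesenchymal genes to 3.98 to 26.4. The oligodendrocyte lineage list summed to 1423 to 2213 CPM, of which Olig1 (727 to 1191) and Olig2 (484 to 680), both also expressed in progenitors grown with growth factors, made up most, while Mog had at most 1 count. Of the 10 listed genes, 8 had at least 10 counts in every library and 6 had a mean log2 CPM of at least 3. The astrocyte list summed to 484 to 800 CPM, most of it Aldoc (141 to 209), Gja1 (130 to 170), Slc4a4, Slc1a2 and Aldh1l1, which radial glia also express, while Gfap, the astrocyte filament, reached 4.93. The neuron list summed to 655 to 1052 CPM, of which the microtubule gene Map2 alone made up 477 to 982, and Dcx, of young neurons, reached 26.5. The part of such cells in the levels of the 9 genes was not tested. In bulk RNA, fewer cells of a type and less RNA per cell cannot be told apart.

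**Figure D1:**
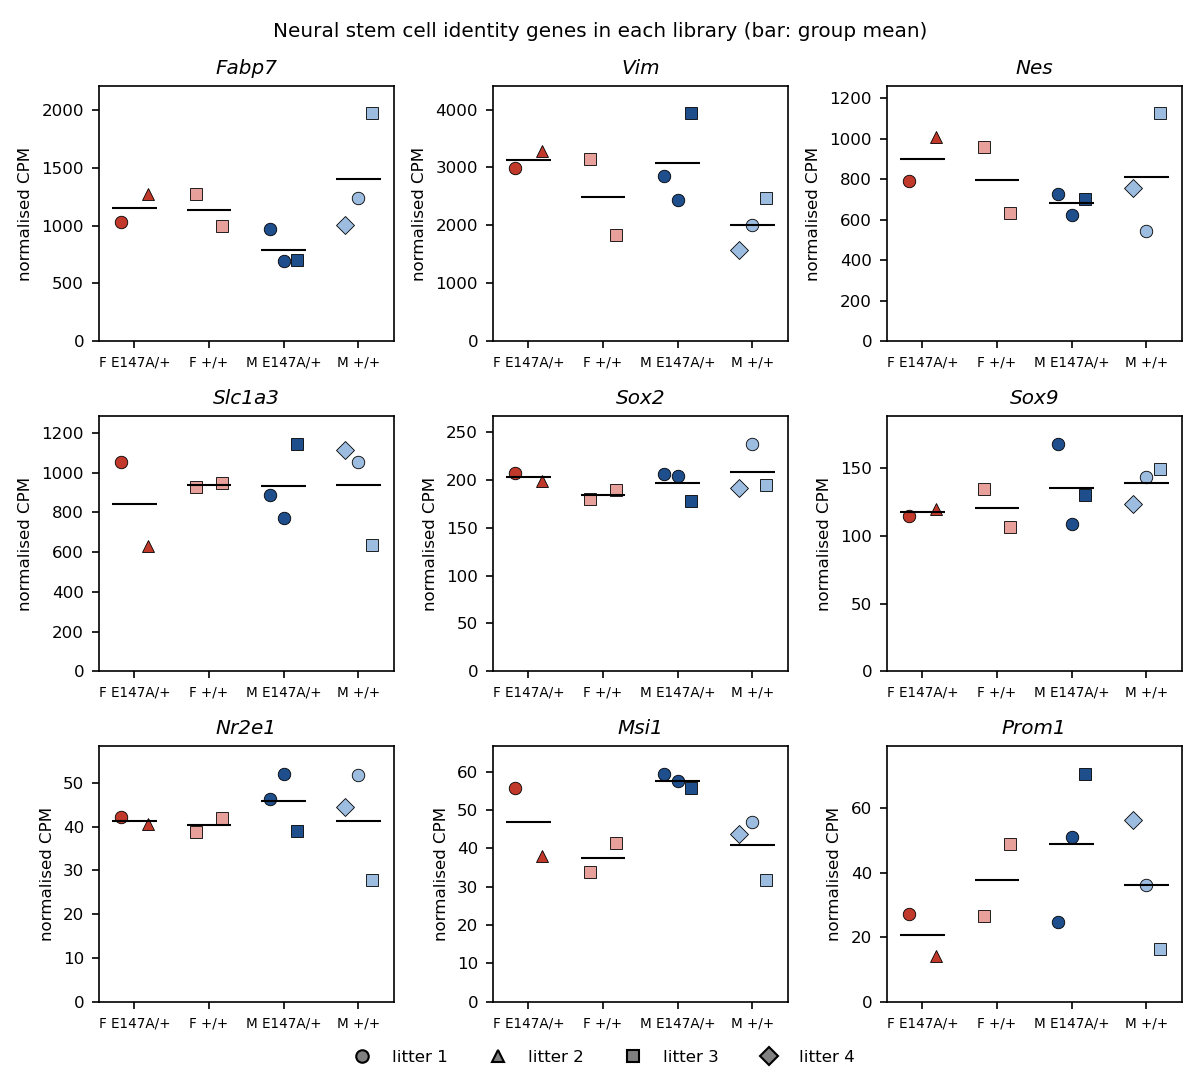
Normalised CPM (y axis, linear from 0) of the 9 genes in the 4 groups, F for female and M for male; each symbol is 1 library, its shape gives the litter, and bars are group means. Sox2 spans 178 to 238 CPM over all libraries, whereas Prom1 spans 14.1 to 70.6.

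Sox2 (ENSMUSG00000074637, chromosome 3, 34650405 to 34652461, GRCm38, protein-coding, inside the non-coding gene Sox2ot on the same strand) was the steadiest of the 9 genes. It stood at 207 and 199 CPM in female E147A/+ and at 180 and 189 in female +/+. Male E147A/+ cultures had 206, 204 and 178 CPM and male +/+ cultures 191, 238 and 195. The 2 female groups did not overlap and the male groups did. The highest library was 1.33 times the lowest, and the coefficient of variation was 8.62%, at percentile 3.10 of all tested genes and 8.08 of the 978 genes within 0.5 log2 CPM of its level. Without male +/+ replicate 2, the highest library, it was 5.55%. Sox2ot itself had 43 to 844 counts per library against 5069 to 8979 for Sox2. How reads of overlapping exons were assigned is not given in the sources used here.

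Sox9 (ENSMUSG00000000567, chromosome 11, 112782224 to 112787760) ran from 107 CPM in female +/+ replicate 2 to 168 in male E147A/+ replicate 1, a coefficient of variation of 14.99%. Its genotypes overlapped in both sexes. Nr2e1 (ENSMUSG00000019803, chromosome 10, 42561963 to 42583632) was at 38.8 to 52.1 CPM in 9 libraries and at 27.8 in male +/+ replicate 3, with a coefficient of variation of 16.5%. The median genes of their levels had 16.2% and 17.8%.

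Msi1 (ENSMUSG00000054256, chromosome 5, 115429599 to 115455698) was at 55.6 and 38.1 CPM in female E147A/+ and at 33.7 and 41.3 in female +/+. In males it was at 59.4, 57.5 and 55.6 in E147A/+ and at 43.8, 46.9 and 31.8 in +/+. All 3 male E147A/+ libraries were above all 3 male +/+ libraries, and the female groups overlapped. The overlapping antisense gene 4930430O22Rik had 0 counts throughout.

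Vim (ENSMUSG00000026728, chromosome 2, 13573927 to 13582826) was the gene with the most counts, at 2985 and 3287 CPM in female E147A/+ and 3153 and 1832 in female +/+. In males it was at 2857, 2440 and 3936 CPM in E147A/+ and at 1568, 2000 and 2469 in +/+. The male groups met only at their edges, 2440 against 2469. Nes (ENSMUSG00000004891, chromosome 3, 87971078 to 87980451), the other filament gene, ran from 546 CPM in male +/+ replicate 2 to 1125 in male +/+ replicate 3, so that this one group held both extremes.

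Fabp7 (ENSMUSG00000019874, chromosome 10, 57784881 to 57788450) was at 1030 and 1271 CPM in female E147A/+ and at 1271 and 994 in female +/+. In males it was at 967, 696 and 702 CPM in E147A/+ and at 1007, 1235 and 1972 in +/+. The male groups did not overlap, with +/+ replicate 3 far above the rest, and the female groups overlapped. Its coefficient of variation was 32.7%, above that of 88.4% of genes at its level, and 21.4% without that library.

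The genes of the 2 membrane proteins were Prom1 and Slc1a3. Prom1 (ENSMUSG00000029086, chromosome 5, 43993620 to 44102032) was at 27.0 and 14.1 CPM in female E147A/+ and at 26.6 and 48.9 in female +/+. Male E147A/+ cultures had 24.6, 51.1 and 70.6 CPM and male +/+ cultures 56.2, 36.1 and 16.4, so the genotypes overlapped in both sexes. Its highest library, in male E147A/+, was 4.99 times its lowest, in female E147A/+, with a coefficient of variation of 50.3%, above that of 97.1% of the 2636 genes at its level. Slc1a3 (ENSMUSG00000005360, chromosome 15, 8634124 to 8710764) ran from 631 CPM in female E147A/+ replicate 2 to 1146 in male E147A/+ replicate 3, with a coefficient of variation of 20.4%. The same libraries were lowest and highest for Prom1.

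Of the panel, 3 of the 9 genes, Sox2, Sox9 and Nr2e1, had a lower coefficient of variation than the median gene of their level. Sox9 and Nr2e1 were only just below it, at percentiles 44.0 and 43.9, and on counts scaled by the total alone Nr2e1 had 18.5%. Litters differ in number of libraries and mix sex and genotype, so the part of litter in the spread was not tested. In litter 3 (4 libraries) Prom1 varied 4.30-fold, Fabp7 2.81-fold and Vim 2.15-fold, and in litter 1 (4 libraries) 2.08-fold, 1.77-fold and 1.49-fold. Sox2 varied 1.17-fold in litter 1 and 1.09-fold in litter 3. Male +/+ replicate 3 stood farthest from the others, with a median distance of 0.56 log2 units from each gene's median over libraries, against 0.05 to 0.31 in the other 9 libraries. Over all tested genes the same library was also the farthest, at 0.34.

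**Figure D2:**
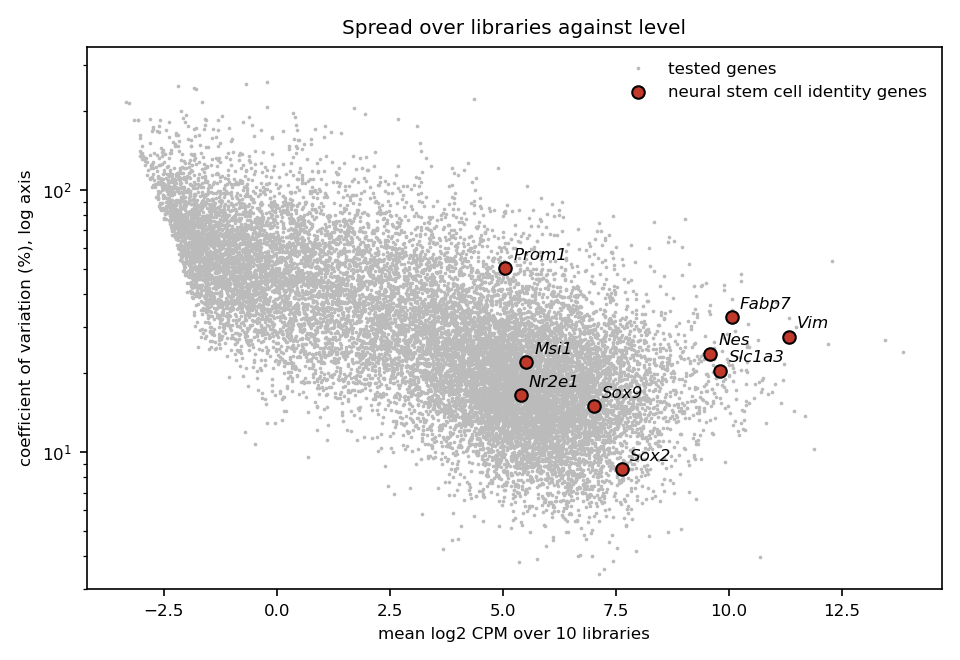
Coefficient of variation of normalised CPM over 10 libraries (y axis, percent, log scale) against mean log2 CPM (x axis) for 17110 tested genes in grey and the 9 genes in red. Sox2 lies at 8.62% near the lower edge of the cloud and Prom1 at 50.3% near its upper edge.

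The main question was whether the panel differed between E147A/+ and +/+ cultures. Over both sexes edgeR's quasi-likelihood test called 0 of 9 genes at an adjusted p of 0.05, against 0.0818% of 17110 genes, and 1 had an unadjusted p below 0.05 (5.9% of all tested genes). DESeq2 and limma-voom called 0 of 9 as well, in this and each comparison that follows. The median log2 fold change of the 9 genes was -0.03, and that of all tested genes -0.01. In females 0 of 9 passed (background 0.0117%; 0 unadjusted against 4.36%). In males it was 0 of 9 (background 0.0234%), with 3 of 9 at an unadjusted p below 0.05 against 3.44% of all tested genes. For the difference between the sexes it was 0 of 9 (background 0%; 0 unadjusted against 1.84%), and between females and males over both genotypes 0 of 9 (0.0292%; 0 unadjusted against 2.81%). Leaving out any 1 library kept each count past the adjusted threshold at 0 of 9. The unadjusted counts then ran from 0 to 2 over both sexes, 1 to 3 in males and 0 to 2 for the difference between the sexes.

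The intervals state how large a change the data still allow. They are 95% intervals of single genes from the fit without litter, not adjusted for the number tested. Sox2 had a log2 fold change of 0.03 over both sexes (95% interval -0.22 to 0.28), which corresponds to 0.856 to 1.21 times the +/+ level. Sox9 was at -0.04 (-0.36 to 0.29), Nr2e1 at 0.09 (-0.30 to 0.49), Nes at -0.03 (-0.51 to 0.44) and Slc1a3 at -0.08 (-0.55 to 0.40). Prom1 was at -0.22 with the widest interval, from -1.10 to 0.66, or 0.465 to 1.58 times. Its mean was 20.6 CPM in female E147A/+ against 37.8 in female +/+, and 48.8 against 36.2 in males, so the sexes went opposite ways. Leaving out each library gave Prom1 -1.42 to -0.37 in females, 0.062 to 0.90 in males and -1.86 to -0.80 for the difference between the sexes. With litter as a covariate the direction turned for Sox2 (-0.12), Nr2e1 (-0.17), Nes (0.18), Slc1a3 (0.14) and Prom1 (0.25). That fit takes up female E147A/+ replicate 2 and male +/+ replicate 1 entirely, each the only library of its litter. Its female part rests on female E147A/+ replicate 1 against litter 3, with the difference between these litters taken from males. It therefore does not separate litter from genotype in females.

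Msi1, Vim and Fabp7 came closest to a difference. Msi1 had a log2 fold change of 0.41 over both sexes (SE 0.16, adjusted p 0.803 in edgeR's test). Vim was at 0.47 (SE 0.21, adjusted p 0.821) and Fabp7 at -0.41 (SE 0.21, adjusted p 0.821). In males the values were 0.49 for Msi1 (SE 0.20), 0.61 for Vim (SE 0.27) and -0.83 for Fabp7 (SE 0.27), and edgeR gave each an adjusted p of 1.00. Within litter 1 (2 male E147A/+ libraries against 1) the male differences in log2 CPM were 0.32, 0.40 and -0.59, and within litter 3 (1 against 1) they were 0.81, 0.67 and -1.49. Without male +/+ replicate 3 the male value of Fabp7 was -0.51. In females the values were 0.32 for Msi1, 0.33 for Vim and 0.02 for Fabp7, and the difference between the sexes for Fabp7 was 0.86 (SE 0.42, adjusted p 0.999), or 0.53 without male +/+ replicate 3. In the astrocyte and neuron lists 0 genes were called in males by edgeR, DESeq2 or limma-voom: 8 of 9 astrocyte genes had a negative log2 fold change (median -0.55, 1 unadjusted) and 10 of 12 neuron genes a positive one (median 0.56, 0 unadjusted), against a median of -0.02 over all tested genes. The summed astrocyte genes were at 484 to 551 CPM in male E147A/+ and 537 to 800 in male +/+, and the neuron genes at 655 to 744 and 656 to 1052. Their part in the values of Msi1, Vim and Fabp7 was not tested. Vim in females went to -0.0074 without female +/+ replicate 2 and 0.77 without replicate 1, and in males to 0.40 without male E147A/+ replicate 3. Msi1 in females went to 0.025 without female E147A/+ replicate 1, 0.58 without replicate 2 and 0.18 without female +/+ replicate 1. Over both sexes Fabp7 went to -0.24 without male +/+ replicate 3, Vim to 0.30 without female +/+ replicate 2 and Msi1 to 0.27 without female E147A/+ replicate 1.

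Groups that did not overlap were read against the same count over all genes. Msi1 was the only one of the 9 genes with all male E147A/+ libraries above all male +/+ libraries, a pattern of 3.2% of tested genes, and Fabp7 the only one with all below, a pattern of 3.96%. In females Sox2 alone was above in both E147A/+ libraries (21.8% of tested genes) and none was below in both (19.3%). Over both sexes none of the 9 separated the 5 E147A/+ from the 5 +/+ libraries in either direction, against 0.695% and 0.742% of tested genes.

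**Figure D3:**
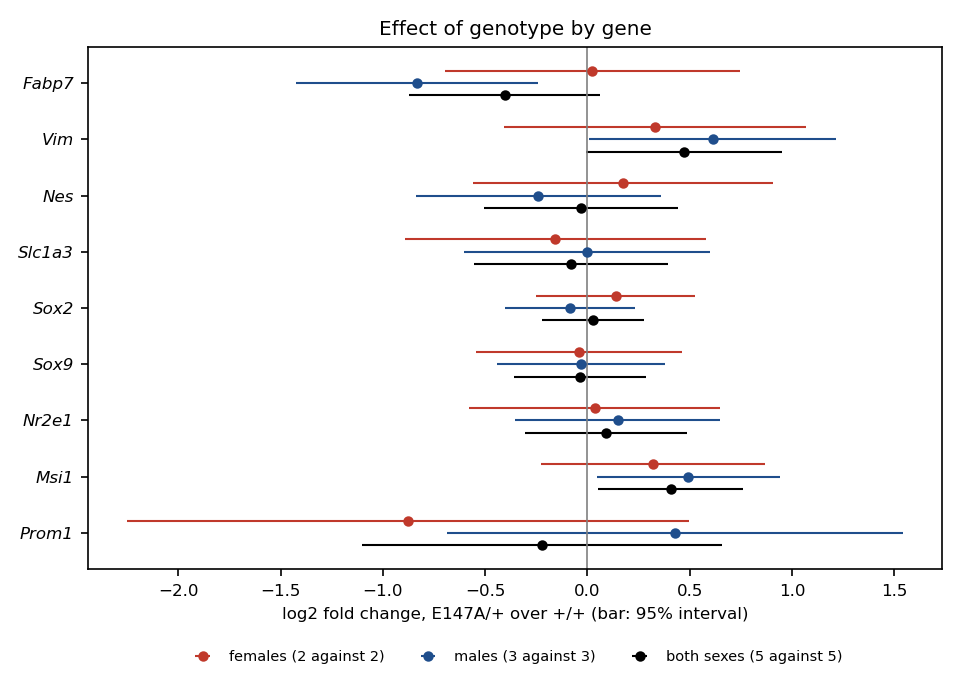
Log2 fold change of E147A/+ over +/+ (x axis) for each gene in females, males and both sexes; points are edgeR estimates and bars their 95% intervals. The interval of Sox2 over both sexes is the narrowest, -0.22 to 0.28, and that of Prom1 in females is the widest.

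A list of 30 further progenitor genes was set beside the panel. Over both sexes 0 of 30 passed in edgeR, 2 had an unadjusted p below 0.05, and DESeq2 and limma-voom called 0. The edgeR background for this and the lists below was 0.0818% of all tested genes passing and 5.9% at an unadjusted p below 0.05. The median log2 fold change of the 30 genes was -0.05, with 11 genes above 0 and 19 below. The lowest p values belonged to Ptprz1, a receptor phosphatase of radial glia (-0.35, SE 0.14), the Notch effector Hey1 (-0.52, SE 0.21), and Hes1 (0.63, SE 0.28) and Hes5 (-1.13, SE 0.55), repressors that act downstream of Notch. The proliferation list had 0 of 8 genes past the threshold in edgeR (1 unadjusted, 0 by DESeq2 or limma-voom) and a median of -0.29, with Mki67 at -0.53 (SE 0.18). In the oligodendrocyte lineage list 7 of 9 tested genes were below 0, with a median of -0.55 against -0.01 over all tested genes. In edgeR 4 of the 9 had an unadjusted p below 0.05 and 1 passed, Gpr17, of committed oligodendrocyte precursors. Gpr17 fell by 4.98 on the log2 scale (SE 0.65, adjusted p 0.0249 in edgeR). It had 0 to 4 counts in E147A/+ and 30 to 134 in +/+ libraries, and limma-voom called it alone in the list. DESeq2, and edgeR without a filter, called 2 genes of the list lower, Gpr17 and Pdgfra. In edgeR Gpr17 passed without male E147A/+ replicate 2 or 3, but not without any other single library (log2 fold change -5.48 to -4.71, adjusted p 0.0244 to 0.370), nor with litter (-5.03, adjusted p 0.740) or the replicate block (-5.01, adjusted p 0.239). Of 4 tested ventral telencephalic genes 0 passed in edgeR (3 unadjusted, 0 by limma-voom). DESeq2 called Dlx2 higher, and edgeR Dlx1 without male +/+ replicate 2, where 3 were tested. Ventral telencephalic genes summed to 11.1 and 12.6 CPM in female E147A/+ and to 0.304 to 4.32 in the other 8 libraries.

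The 9 genes did not vary together as 1 block over the 10 libraries. Of 36 pairs, 16 had a positive and 20 a negative Pearson correlation of log2 CPM, and 0 passed an adjusted p of 0.05 over the 36 pairs in a two-sided permutation test, though with RLE in place of TMM scaling 2 did (lowest adjusted p 0.0441). A total of 8 pairs had an unadjusted p below 0.05. The test shuffled all 10 libraries freely, although they share groups and litters, and its p values do not account for that. The lowest p belonged to Nes with Nr2e1 (r = -0.81, rho = -0.73, permutation p 0.00215, adjusted 0.0508; by rho 0.161), and r was -0.59 without the 2 libraries of most extreme Nes. For Fabp7 with Msi1 r was -0.81 and rho -0.84 (permutation p 0.00282, adjusted 0.0508; by rho 0.134), and -0.67 without the 2 libraries of most extreme Fabp7. Leaving out male +/+ replicate 3 gave the weakest r of both pairs, -0.72 each. Fabp7 with Nr2e1 (r = -0.65, rho = -0.56, permutation p 0.0512, adjusted 0.205) rested on that library: r was -0.19 without it and 0.24 without the 2 libraries of most extreme Fabp7. No litter held more than 4 libraries, too few for r within a litter.

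Deviations from the group means were correlated as well, which removes differences between the groups. They are given as a description, since a permutation test of them is void: deviations within a group sum to 0 and the 10 values hold 6 degrees of freedom. The most negative were Fabp7 with Prom1 (r = -0.96, rho = -0.88), Nes with Msi1 (r = -0.87, rho = -0.89) and Nes with Nr2e1 (r = -0.84, rho = -0.83). Without the 2 most extreme libraries r was -0.93, -0.77 and -0.47. For Fabp7 and Prom1, male +/+ replicate 3 had the highest Fabp7 and the lowest Prom1 of its group, and male E147A/+ replicate 1 likewise.

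**Figure D4:**
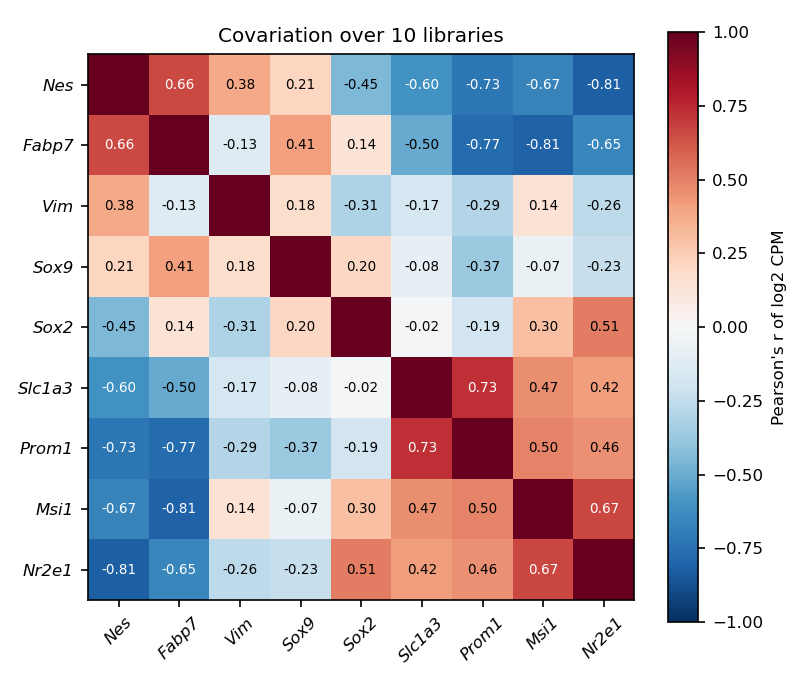
Pearson's r of log2 CPM over 10 libraries for each pair of the 9 genes, in red where positive and blue where negative. Nes and Fabp7 are positive with each other (0.66) and negative with Slc1a3, Prom1, Msi1 and Nr2e1. Without male +/+ replicate 3, r was 0.43 for Nes with Fabp7 and -0.19 for Fabp7 with Slc1a3.

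For each gene the tested gene with the most similar profile was looked up, by the highest Pearson r over the 10 libraries and with no test, as it was picked from 17110. The Notch ligand gene Jag1 was most like Vim (r = 0.97, rho = 0.95), at 37.5 to 106 CPM. The chromatin remodeller gene Chd2 was most like Nr2e1 (r = 0.98, rho = 0.95), and Stt3b, of the oligosaccharyltransferase complex, most like Sox9 (r = 0.85, rho = 0.88). Zfp597 was most like Fabp7 (r = 0.95) and Fbxo27 most like Msi1 (r = 0.98). The others, Gm10614 for Sox2, Ly75 for Nes, Islr for Prom1 and Gm19196 for Slc1a3, had at most 4.35 CPM in any library, and Fbxo27 at most 3.36.

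The female libraries had counts assigned to the 129 or the Cast allele, and these showed first where each embryo carried a Cast allele at the 9 genes. A father of pure Cast strain would give a Cast and a maternal allele everywhere. How C57 alleles were counted is not given in the sources used here. The other genes within 10 megabases (Mb) on either side (at least 20 allelic counts each) gave a median Cast share of 35% to 65%, called both alleles here, in 13 of 36 combinations of gene and library, and a share below 15%, called low-Cast, in 23. Female E147A/+ replicate 1 was low-Cast at all 9 genes, female E147A/+ replicate 2 at 3, female +/+ replicate 1 at 6 and female +/+ replicate 2 at 5. Sox9 and Msi1 had both alleles in no library, and no gene had both in all 4. A comparison of allele shares between the genotypes over 2 libraries each was therefore not possible for any of the 9 genes. This goes against the label of an F1 of a Cast father at these places.

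Where both alleles were present, the Cast share of the 9 genes was 40.0% to 56.0% with a median of 48.1%. Vim, with the most allelic counts, had a Cast share of 47.8% (95% Wilson interval 47.4 to 48.1) in female E147A/+ replicate 2, and 46.5% (46.1 to 46.9) and 48.1% (47.7 to 48.6) in female +/+ replicates 1 and 2. The medians of its neighbours were 47.4%, 45.6% and 47.3%, so that Vim lay within 1 percentage point of them in each library. Intervals cover counting error only. Sox2 had 49.4% (47.4 to 51.4), 52.7% (50.3 to 55.1) and 47.8% (45.7 to 49.9) in the same libraries, on both sides of 50%.

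Nes leaned to the 129 allele in both libraries that could show it. Its Cast share was 44.97% (44.4 to 45.6) in female E147A/+ replicate 2 and 43.2% (42.4 to 44.0) in female +/+ replicate 2, and the medians of neighbouring genes were 50% and 49.2%. Of those neighbours 23.8% and 18.3% had a lower share than Nes. Prom1 had 40.0% (37.0 to 43.0) in female +/+ replicate 2, the only library with both alleles there, against a median of 48.7%, and 25.3% of its neighbours were lower. Fabp7 had 56.0% (55.1 to 57.0) in female E147A/+ replicate 2, above 81.8% of its 77 neighbours. Slc1a3 had 54.1% (53.1 to 55.0) in female E147A/+ replicate 2 and 49.3% (48.4 to 50.2) in female +/+ replicate 1, and Nr2e1 48.4% (43.6 to 53.1) in its single library. Whether read assignment favoured an allele was not tested.

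In the low-Cast combinations the Cast share of the 9 genes was 0% to 3.06%. Prom1 had 0 of 675, 0 of 351 and 0 of 433 allelic counts from Cast, which allows shares of up to 0.444%, 0.855% and 0.693%. Female +/+ replicate 1 was above the other low-Cast libraries for Fabp7, at 1.74% (1.47 to 2.07) against 0.205% and 0.232%, and for Sox9, at 3.06% (2.41 to 3.87) against 0.964% to 1.33%. In its other low-Cast genes the genes' own shares were not apart. Nes had 0.330% against 0.256%, and Nr2e1 1.23% (4 of 326 counts) against 1.29% and 1.17%. Msi1 had 0.901% against 0.997% to 1.26%, and Prom1 none. The medians of the genes neighbouring Fabp7 and Sox9 were 1.28% and 2.08% in female +/+ replicate 1. They were also above those of the other low-Cast libraries except around Sox9 in female +/+ replicate 2. Around Nr2e1 its median was 1.73%, against 0.164% in female E147A/+ replicate 1 and 0.113% in female +/+ replicate 2. Around Prom1 its median was again the highest of the low-Cast libraries, at 0.182%. Around Nes it was the lower, at 0.254% against 0.405%, and around Msi1 it lay within the range of the others. Female +/+ replicate 1 is the library with the highest Y-linked counts among the females, and the part of RNA from another animal was not tested. Around Sox9 in female +/+ replicate 2 the median of 14.4% had an upper quartile of 48.0%, and around Msi1 in female E147A/+ replicate 1 the median of 14.1% had one of 48.9%, so each of these windows held genes of both kinds.

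The share of a gene's total counts that could be assigned to an allele differed between genes and hardly between libraries. It was 57.3% to 60.8% for Vim and 56.6% to 59.4% for Nes, but 18.1% to 20.0% for Fabp7 and 18.7% to 20.96% for Msi1. For Vim it was 60.8% in the low-Cast library and 57.3% to 60.7% in those with both alleles.

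**Figure D5:**
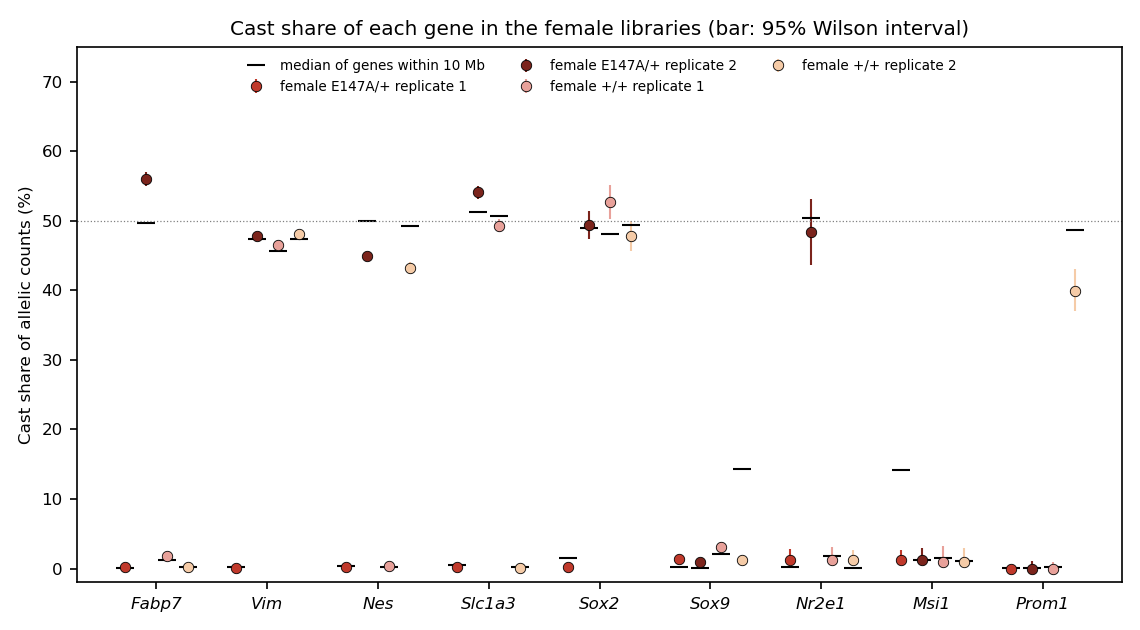
Cast share of allelic counts (y axis, percent) for each gene in the 4 female libraries; points have 95% Wilson intervals and dashes are medians of neighbouring genes within 10 Mb. The points fall either at 40.0% to 56.0% or at 0% to 3.06%, and the dashes lie in the same bands except around Sox9 and Msi1 in 1 library each.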

How the data were processed

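Poly(A) RNA of 10 cultures was sequenced. The authors deposited raw counts per gene, and for 4 female libraries counts per allele; the submitters' processing notes name Trim Galore 0.4.4, HISAT2 2.0.5, featureCounts, R 3.5.1, edgeR 3.24.0 and the builds GRCm38 and mm10. Strand setting and allele assignment are not given in the sources used here. The members and lists were chosen with earlier results of these data known.

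filterByExpr kept 17110 genes, and TMM factors scaled the libraries. The test was the quasi-likelihood test of edgeR 4.0.16 under R 4.3.3, with 1 mean per group, 6 residual degrees of freedom and Benjamini-Hochberg adjustment over all tested genes at a threshold of 0.05. The p-values measure the spread between embryo cultures. Log2 CPM had a prior count of 2. Exon lengths came from GENCODE M21, whose coordinates matched the table for 9 of 9 genes. Correlations used 100000 permutations. Limits of a count of 0 use 3 counts and intervals 95% Wilson. On simulated counts (16768 genes tested over both sexes) 31.3% of genes changed by 1 log2 unit and 90.8% of those changed by 3 were recovered, against 3.03% and 66.3% in females and 13.1% and 79.6% in males. Alternatives were RLE, DESeq2 1.42.0, limma-voom 3.58.1, other filters, only the groups compared, litter, a replicate block and leaving out each library. Named genes are the 9, Smchd1, up to 4 of lowest p per other list, and 1 most similar gene each; marker genes given as levels were picked after their values were seen. The report gives the range of total counts, and more counts mean less counting error.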

Additional observations from a re-analysis of the deposited data

How the results depend on the processing

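In the 100 contrast fits that were run (the replicate blocks without the sex contrast, only the groups compared within a sex alone) 0 called any of the 9 genes, and the lowest adjusted p was 0.431, for Prom1 between the sexes without male +/+ replicate 3. With 2 or 3 cultures a group, intervals are wide. Of 32 log2 fold changes, 13 kept their sign throughout; the cause of each change below was not tested.

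With litter as a covariate, values over both sexes became -0.12 for Sox2, 0.18 for Nes, 0.25 for Prom1, -0.17 for Nr2e1 and 0.14 for Slc1a3, and in females -0.069 for Sox2, -0.50 for Nr2e1 and 0.14 for Slc1a3. The female values of that fit rest on female E147A/+ replicate 1 as the only mutant library, so they do not separate litter from genotype. Weighted limma-voom gave 0.14 for Nes over both sexes, and 0.079 for Nes and -0.017 for Prom1 in males. Over the main fit and all alternatives but leaving out a library, Vim in females ran from 0.33 to 0.72. In the same fits Nes in females ran from 0.17 to 0.48 and Prom1 in females from -0.91 to -0.38. Nes over both sexes was 0.0084 with the replicate block and 0.0084 with crossed female numbers. Slc1a3 in males, -0.00293 in the report, was 0.0054 with RLE, 0.0054 with DESeq2, 0.0026 without a filter, 0.0056 with 10 counts in every library, 0.0085 at a mean log2 CPM of 3, 0.14 with litter and 0.014 with either replicate block. 

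Leaving out each library gave over both sexes -0.00161 to 0.081 for Sox2, -0.17 to 0.14 for Nes, -0.49 to 0.029 for Prom1, -0.018 to 0.19 for Nr2e1, -0.12 to 0.058 for Sox9 and -0.28 to 0.10 for Slc1a3. In females it gave -0.0074 to 0.77 for Vim, -0.093 to 0.50 for Nes, -0.025 to 0.095 for Nr2e1, -0.14 to 0.20 for Fabp7, -0.20 to 0.13 for Sox9 and -0.57 to 0.18 for Slc1a3. In males it gave -0.14 to 0.024 for Sox2, -0.46 to 0.074 for Nes, -0.072 to 0.34 for Nr2e1, -0.21 to 0.10 for Sox9 and -0.22 to 0.14 for Slc1a3. The coefficient of variation was 5.55% to 9.14% for Sox2 and 21.4% to 34.9% for Fabp7. Over the main and other scalings of all libraries it was 8.62% to 10.3% for Sox2 and 31.5% to 32.7% for Fabp7. Pairs of genes past the threshold went from 0 to 2 with RLE and 3 with deviations from group means, where the test is void because the deviations are not free values.

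Over all genes, counts past the threshold over both sexes went from 14 to 113 (DESeq2), 29 (limma-voom), 33 (no filter), 9 (10 counts in every library), 5 (mean log2 CPM of 3), 3 (litter), 5 (replicate block), 6 (crossed block) and 2 to 12 without 1 library. In females they went from 2 to 44 (DESeq2), 8 (no filter), 1 (only the groups compared), 0 (litter, 286 unadjusted), 0 (replicate block, 836 unadjusted), 0 (crossed block, 1020 unadjusted) and 0 to 2 without 1 library. In males they went from 4 to 46 (DESeq2), 9 (limma-voom), 14 (no filter), 2 (litter), 2 (replicate block), 1 (only the groups compared) and 1 to 4. The interaction went from 0 to 2 (DESeq2), 1 (litter) and 0 to 1, and the sex contrast from 5 to 10 (DESeq2), 9 (litter) and 0 (10 counts in every library, 355 unadjusted). Replicate numbers mark different embryos; their deviations had a correlation of -0.304 in females and -0.238, 0.416 and 0.034 in males, where 2 of 6 libraries correlated best with their own number, so the block is not a pairing by design. The crossed block, the range of r without each library and list counts under alternatives were added after seeing the data. Leaving out replicates was not run for the allele shares, as no gene had both alleles in all 4 libraries. With 5 Mb windows 13 combinations had both alleles and 23 were low-Cast. With at least 100 allelic counts 13 had both alleles, 22 were low-Cast and 1 lay between.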
